A study of Mus musculus with 12 samples.

Results

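The genes described here are 10 mouse antioxidant enzymes and carriers, picked by symbol from a table of 32285 genes: Sod1, Sod2, Cat, Gpx1, Gpx4, Glrx, Txn1, Txn2, Txnrd2 and Gsr. All 10 were found in the table and all 10 had enough counts to be tested, among 14113 tested genes. Expression was measured by sequencing polyadenylated RNA of wild-type bone marrow-derived macrophages, which are phagocytes grown in culture from marrow precursors. Cells were kept for 16 h with 1 of 3 dicarboxylic acids at 5 mM, or in medium alone (M). The groups given itaconic acid are called IA, those given malonic acid MA and those given methylsuccinic acid MetSA. Every group held 3 biological replicates, all wild type, and the acids were added from a 50 mM stock in RPMI. No stimulus other than the acids is named. No label says if each replicate was a different mouse, so p-values measure only the spread between these samples, which may not be the spread between mice. Itaconic acid is made by activated macrophages. Methylsuccinic acid has its carbon skeleton but no carbon-carbon double bond, and malonic acid is a shorter dicarboxylic acid that inhibits succinate dehydrogenase.

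Cells hold superoxide down with superoxide dismutases, which turn it into hydrogen peroxide and oxygen. Catalase and the glutathione peroxidases then break peroxides down. The peroxidases spend glutathione, which glutathione reductase returns to its reduced form with NADPH. Thioredoxins and glutaredoxins reduce disulfides in proteins through a pair of cysteines, and thioredoxin reductases recharge thioredoxins with NADPH. Phagocytes make superoxide on purpose with an NADPH oxidase. Glutathione peroxidases of this kind and thioredoxin reductases hold selenocysteine, an amino acid that is read from a TGA codon which elsewhere ends translation.

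The sequences of catalytic codons are shown for the selenocysteine of Gpx1, Gpx4 and Txnrd2 and for the cysteine pair of Txn1, Txn2 and Glrx. They were read from the GENCODE M21 transcripts, 5′ to 3′, with 24 bases on each side where the coding sequence is long enough, and the capitals mark the TGA codon read as selenocysteine or the codons of the cysteine pair and the residues between them. Gpx1 has its TGA at codon 47, Gpx4 at codon 73 and Txnrd2 at codon 526, close to the stop codon. The cysteine pair starts at codon 32 in Txn1, codon 90 in Txn2 and codon 23 in Glrx. No cysteine pair was sought in the other members. Besides Gpx1, Gpx4 and Txnrd2, the remaining 7 members have no TGA in frame before their stop codon.
Gpx1: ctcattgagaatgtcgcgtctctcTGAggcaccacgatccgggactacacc
Gpx4: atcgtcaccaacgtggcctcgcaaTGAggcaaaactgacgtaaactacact
Txnrd2: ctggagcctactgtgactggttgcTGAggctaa
Txn1: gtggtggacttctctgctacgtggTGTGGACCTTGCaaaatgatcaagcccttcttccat
Txn2: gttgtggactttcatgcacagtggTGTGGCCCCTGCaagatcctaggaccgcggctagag
Glrx: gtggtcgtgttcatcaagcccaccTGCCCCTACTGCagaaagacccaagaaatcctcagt

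Promoter windows of 300 bases, from 250 before to 50 after the start site, are shown for the 3 members with the largest differences between groups. They come from RefSeq on GRCm38.p6 and lie on the plus strand, at chr9:108338830-108339129 for Gpx1, chr17:13007589-13007888 for Sod2 and chr13:75839635-75839934 for Glrx. Capitals mark GGGCGG, the GC box, and TGACNNNGC, an antioxidant response element core, on either strand.
Gpx1: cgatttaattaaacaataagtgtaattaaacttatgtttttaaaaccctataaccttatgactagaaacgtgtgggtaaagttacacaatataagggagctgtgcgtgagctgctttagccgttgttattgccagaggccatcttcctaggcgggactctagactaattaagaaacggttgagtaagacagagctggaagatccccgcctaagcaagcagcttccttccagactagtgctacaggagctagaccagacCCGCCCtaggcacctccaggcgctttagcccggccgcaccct
Sod2: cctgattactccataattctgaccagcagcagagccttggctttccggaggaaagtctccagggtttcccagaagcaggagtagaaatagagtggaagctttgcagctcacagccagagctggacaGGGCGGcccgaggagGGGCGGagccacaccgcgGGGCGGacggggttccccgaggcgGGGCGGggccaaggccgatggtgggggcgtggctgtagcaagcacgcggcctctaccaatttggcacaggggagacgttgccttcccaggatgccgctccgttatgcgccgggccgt
Glrx: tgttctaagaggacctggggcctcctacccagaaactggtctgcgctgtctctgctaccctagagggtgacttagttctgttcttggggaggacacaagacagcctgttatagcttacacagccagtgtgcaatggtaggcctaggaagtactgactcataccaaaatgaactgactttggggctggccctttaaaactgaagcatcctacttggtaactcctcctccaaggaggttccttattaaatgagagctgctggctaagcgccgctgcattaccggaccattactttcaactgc
The Sod2 window holds 4 GC boxes, the Gpx1 window 1 and the Glrx window 0, while 35.7% of 32851 promoter windows of this length hold at least 1. Of the members with a window, Sod1 is the one with a TGACNNNGC match, which 12.4% of all windows hold. A match is a description of these letters. Windows were found for 9 of the 10 members, and Gsr had none.

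Libraries held 46892488 to 54252486 counts, and levels are given in CPM, counts per 1000000 counts of the library after scaling for composition. A gene was called at an adjusted p under 0.05 over all 14113 tested genes, and all fold changes, standard errors (SE) and adjusted p-values come from the quasi-likelihood test of edgeR, with p adjusted by the Benjamini-Hochberg method. All 8 macrophage markers were tested, and their summed level, most of it Lyz2, ran from 25169.6 to 27787 CPM in IA, from 28027.6 to 30069.8 CPM in MA, from 26480.5 to 32994.8 CPM in MetSA and from 24880.6 to 26949.1 CPM in M. Of these 8 markers, 5 rose and 1 fell under IA, 2 rose and 2 fell under MA, and 6 rose and 1 fell under MetSA. Over all tested genes, 17.9% rose and 17.3% fell under IA, 10.1% and 10.1% under MA, and 12.6% and 8.53% under MetSA. Fcgr1, a high-affinity receptor for antibody, had 1748 ± 42.3 CPM in IA, 312 ± 19.2 CPM in MA, 1155 ± 239 CPM in MetSA and 307 ± 31.7 CPM in M (SD, n = 3 each). Mrc1, the mannose receptor, had 599 ± 44.1 CPM in IA, 207 ± 24.9 CPM in MA, 669 ± 43.4 CPM in MetSA and 826 ± 75.4 CPM in M. Erythroid markers, of cells rich in Cat and Gpx1, summed to at most 0.333 CPM, with Hba-a2 and Slc4a1 at 0 in all 12 libraries. Lymphoid markers summed to at most 0.773 CPM, with Cd3g and Ncr1 at 0, neutrophil markers to between 57.3 and 102 CPM, stromal markers to between 16.3 and 42.5 CPM, and mast cell and basophil markers to at most 0.515 CPM. The 5 dendritic cell markers, summed, were higher in IA and MetSA, at 7.13 to 8.71 CPM in IA, 2.69 to 3.34 CPM in MA, 3.64 to 5.35 CPM in MetSA and 1.98 to 3.08 CPM in M. Most of that rise was Xcr1, at 4.86 ± 0.269 CPM in IA, 0.443 ± 0.118 CPM in MA, 1.97 ± 0.315 CPM in MetSA and 0.223 ± 0.0553 CPM in M. Of these 5 markers, 2 were called higher under IA, 2 under MA and 1 under MetSA. Pecam1, on the stromal list, was at 10.7 ± 0.678 CPM in IA, 4.38 ± 1.01 CPM in MA, 12.8 ± 0.943 CPM in MetSA and 4.13 ± 1.08 CPM in M. Of the 6 stromal markers it was the 1 called against M, higher under IA and MetSA. The median log2 fold change of the 6 was -0.25 under IA, 0.06 under MA and -0.39 under MetSA. The part of these markers in the results was not tested. In bulk samples, fewer cells of a type and less RNA per cell cannot be told apart. MetSA replicate 3 stood apart from the other MetSA libraries, with 1.28% of its counts on mitochondrially encoded genes against 0.759% and 0.833%, and MetSA results of the members are therefore also given without it. That share was 0.673% to 0.811% in IA, 1.05% to 1.12% in MA and 1.15% to 1.36% in M, so it moved with the groups too, and its part in the results was not tested.

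Under IA, 1 member rose (Glrx) and 3 fell (Gpx1, Sod1 and Txnrd2), where 17.9% of all tested genes were called higher and 17.3% lower. Under MA, 2 rose (Sod2 and Gpx4) and 2 fell (Gpx1 and Glrx), against a background of 10.1% higher and 10.1% lower. Under MetSA, 2 rose (Sod2 and Glrx) and 3 fell (Gpx1, Sod1 and Cat), against 12.6% higher and 8.53% lower. With upper-quartile scaling the members called were 1 higher and 4 lower under IA and 1 higher and 5 lower under MetSA. Over all 14113 tested genes that scaling called 1918 higher and 3590 lower under IA, and 1385 higher and 1895 lower under MetSA. The 4 of 10 called under IA is near the share of all genes, and with 10 members no test was made of the larger shares under MA and MetSA. Gpx1 was the 1 member called lower under all 3 acids, Glrx was called under all 3 in differing directions, and Txn1, Txn2 and Gsr were called under none. The 3 acids were compared with the same M libraries, so their values are not independent of each other. The differences were small, with no member value of 2-fold or more and 1 over 1.5-fold, Gpx1 under IA. The median log2 fold change of the 10 members was -0.13 under IA (-0.03 for all tested genes), -0.11 under MA (-0.02) and -0.14 under MetSA (-0.01).

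**Figure D1:**
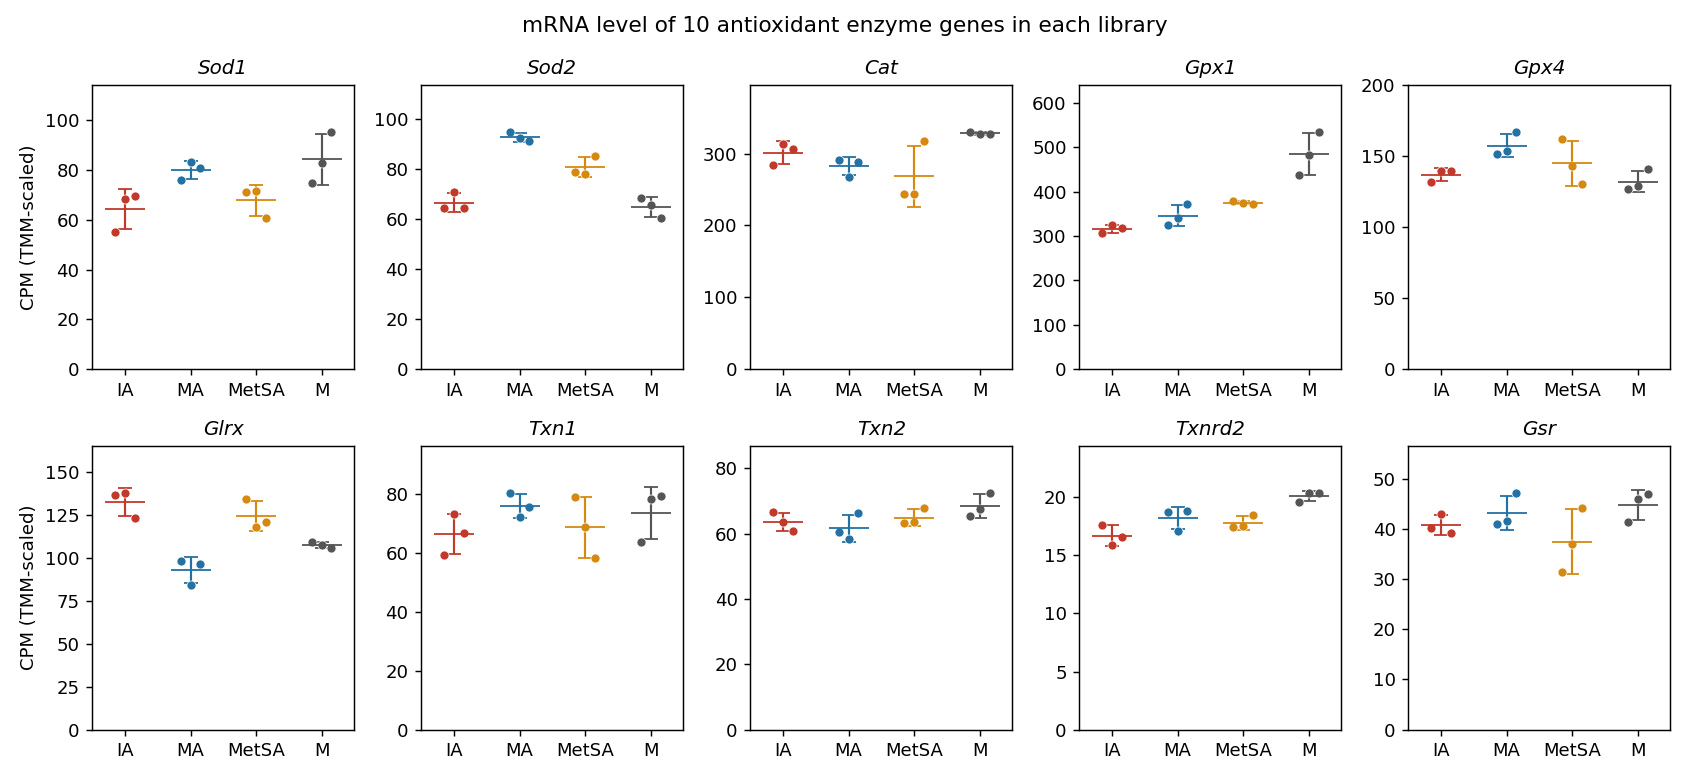
Level in CPM of each of the 10 members (1 panel each, axis from 0) in every library of IA, MA, MetSA and M, with 1 point per library, a line at the mean of 3 libraries and bars of 1 SD. The Gpx1 points of all 3 acids lie below the M points, Sod2 is highest in MA, and Glrx is higher in IA and MetSA and lower in MA than in M.

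Among the superoxide dismutases, Sod1 was called under 2 acids. Sod1, the copper and zinc enzyme of the cytosol, lies at chr16:90220754-90226329 on the plus strand of GRCm38. It had 55.3, 68.4 and 69.6 CPM in IA libraries, 76.0, 83.4 and 80.7 CPM in MA libraries, 71.3, 71.5 and 60.6 CPM in MetSA libraries, and 74.7, 83.0 and 95.2 CPM in M libraries. IA and MetSA libraries all lay below every M library, and MA libraries overlapped them. Sod1 fell under IA, by 0.39 on the log2 scale (SE 0.10, adjusted p = 0.00569), a call kept under all 20 alternative settings. It also fell under MetSA by 0.31 on the log2 scale (adjusted p = 0.0318), but without MetSA replicate 3 the value was -0.24 (adjusted p = 0.112), without M replicate 2 the adjusted p was 0.0684, and without M replicate 3 it was 0.134. Under MA the value was -0.08 (adjusted p = 0.67).

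Sod2, the manganese enzyme of the mitochondrial matrix and a gene known to respond to inflammatory signals, lies at chr17:13006846-13040063 on the plus strand. It had 64.5, 70.9 and 64.6 CPM in IA libraries, 94.8, 92.6 and 91.2 CPM in MA libraries, 78.9, 78.1 and 85.3 CPM in MetSA libraries, and 68.3, 65.8 and 60.4 CPM in M libraries. The MA and MetSA libraries each lay above every M library and apart from each other, and the IA libraries overlapped M. Sod2 rose under MA by 1.43-fold (log2 fold change 0.52, 95% interval 0.38 to 0.65, adjusted p = 5.79e-06) and under MetSA by 1.25-fold (0.32, 0.18 to 0.45, adjusted p = 0.00123). Both calls were kept under all 20 alternative settings, and without MetSA replicate 3 the MetSA value was 0.28 (adjusted p = 0.00493). Under IA the value was 0.04 (adjusted p = 0.673), and with upper-quartile scaling it was -0.05. Some 12.78% of its transcript sequence is shared in 100-base stretches with Rps6ka2 and AC166110.4, so a part of its counts is uncertain.

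Gpx1 held the largest differences among the enzymes that remove peroxides. Gpx1, the selenium-dependent glutathione peroxidase of cytosol and mitochondria, lies at chr9:108338903-108340343 on the plus strand. It had 306, 324 and 318 CPM in IA libraries, 325, 341 and 372 CPM in MA libraries, 378, 375 and 371 CPM in MetSA libraries, and 438, 484 and 534 CPM in M libraries. All 9 acid libraries lay below all 3 M libraries. Gpx1 fell under IA to 316 ± 9.32 CPM against 485 ± 48.2 CPM in M (SD, n = 3 each), a ratio of 0.652 (log2 fold change -0.62, 95% interval -0.76 to -0.47, adjusted p = 7.62e-07). It fell under MA with a ratio of 0.713 (-0.49, -0.63 to -0.34, adjusted p = 2.66e-05) and under MetSA with a ratio of 0.772 (-0.37, -0.52 to -0.23, adjusted p = 0.000476). All 3 calls were kept under all 20 alternative settings, and the MetSA value was -0.37 (adjusted p = 0.0011) without MetSA replicate 3.

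Cat, the heme enzyme of peroxisomes that splits hydrogen peroxide into water and oxygen, lies at chr2:103453849-103485160 on the minus strand. It had 283, 314 and 306 CPM in IA libraries, 291, 268 and 288 CPM in MA libraries, 244, 244 and 318 CPM in MetSA libraries, and 330, 327 and 327 CPM in M libraries. Every acid library lay below the M libraries, and MetSA replicate 3 was nearest to them. Cat fell under MetSA by 0.29 on the log2 scale (SE 0.08, adjusted p = 0.0169). Without MetSA replicate 3 it fell by 0.43 (adjusted p = 2.32e-05), while without MetSA replicate 1, MetSA replicate 2 or M replicate 1 the adjusted p was 0.0879, 0.0904 and 0.0542. A fit of only MetSA and M gave 0.0574. The MA value of -0.22 was not called (adjusted p = 0.0756), but was called with no filter on low counts (adjusted p = 0.0186), in a fit of only MA and M (0.0194) and without MetSA replicate 3 (0.0061), and the IA value was -0.12 (adjusted p = 0.27).

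Gpx4, the selenium enzyme that reduces lipid hydroperoxides in membranes, lies at chr10:80047166-80056439 on the plus strand. It had 132, 140 and 139 CPM in IA libraries, 152, 154 and 167 CPM in MA libraries, 162, 143 and 130 CPM in MetSA libraries, and 127, 129 and 141 CPM in M libraries. MA libraries lay above every M library, and the other acids overlapped M. Gpx4 rose under MA by 0.25 on the log2 scale (SE 0.07, adjusted p = 0.0171), opposite to Gpx1, although the adjusted p was 0.0895 without MA replicate 3, 0.0748 without M replicate 1 and 0.0655 without M replicate 2. The MetSA value was 0.13 (adjusted p = 0.216), and 0.21 without MetSA replicate 3 (adjusted p = 0.0392). The IA value was 0.05 (adjusted p = 0.614), and -0.04 with upper-quartile scaling. Some 25.22% of its transcript sequence is shared with Gpx4-ps2 and AC122253.3, so its counts are uncertain.

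**Figure D2:**
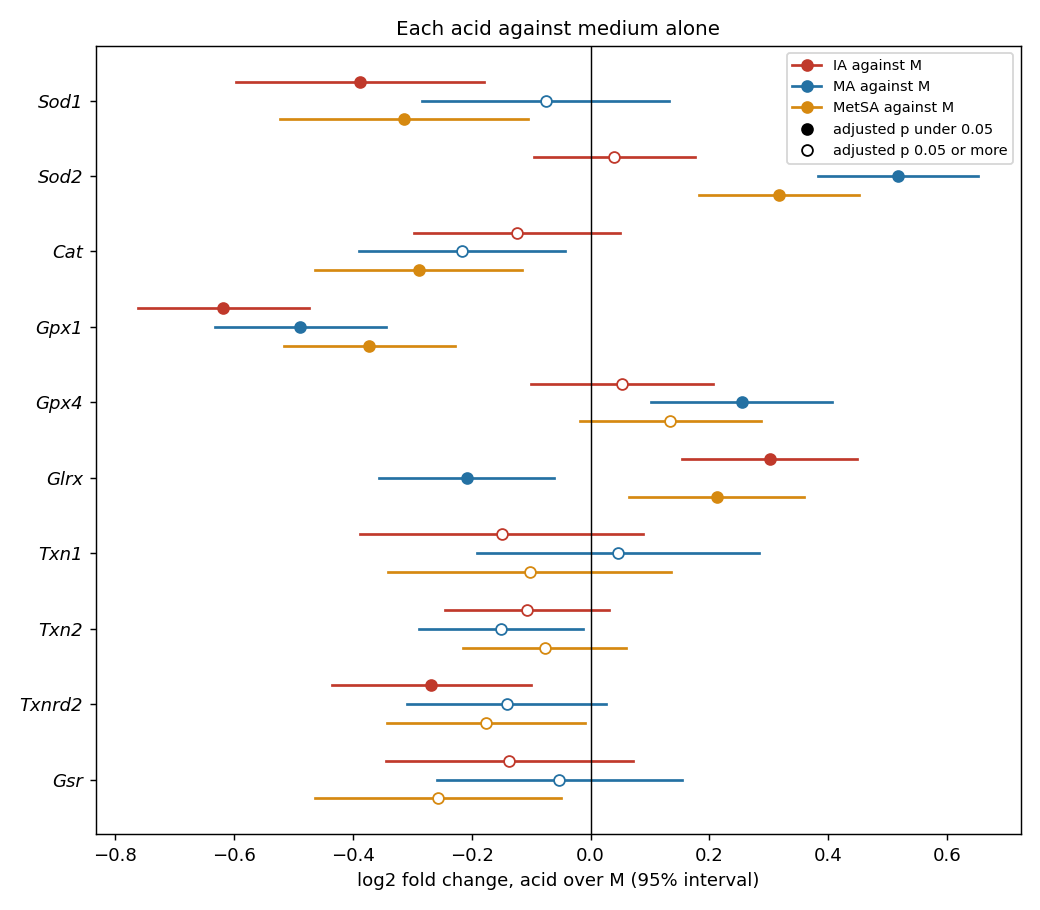
Log2 fold change of each member for IA, MA and MetSA against M, with 95% intervals as bars and filled symbols for an adjusted p under 0.05. Gpx1 is below 0 for all 3 acids, and Glrx is above 0 for IA and MetSA and below 0 for MA.

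In the glutathione system, Gsr was called under no acid. Gsr, which restores glutathione with NADPH, lies at chr8:33652523-33698163 on the plus strand. It had 40.2, 42.9 and 39.2 CPM in IA libraries, 41.0, 41.5 and 47.2 CPM in MA libraries, 31.4, 36.9 and 44.1 CPM in MetSA libraries, and 41.5, 46.0 and 47.0 CPM in M libraries. No group was apart from M beyond the test's threshold, with adjusted p-values of 0.308 for IA, 0.777 for MA and 0.0741 for MetSA. Without MetSA replicate 3, the highest MetSA library, the MetSA value was -0.39 (adjusted p = 0.00249), and it was also called with upper-quartile scaling (0.0314) and with no filter on low counts (0.0197).

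Glrx, the glutaredoxin that removes glutathione from protein cysteines, lies at chr13:75839868-75850154 on the plus strand. It had 137, 138 and 123 CPM in IA libraries, 98.4, 84.4 and 96.3 CPM in MA libraries, 134, 118 and 121 CPM in MetSA libraries, and 109, 107 and 106 CPM in M libraries. IA and MetSA libraries all lay above M and MA libraries all below. Glrx rose under IA by 0.30 on the log2 scale (95% interval 0.15 to 0.45, adjusted p = 0.00226), a call kept under all 20 alternative settings. It rose under MetSA by 0.21 (SE 0.07, adjusted p = 0.0368) and fell under MA by 0.21 (SE 0.07, adjusted p = 0.0421), and both p-values lay near the threshold. The MetSA call was lost without MetSA replicate 1 (adjusted p = 0.179), M replicate 1 (0.0714), M replicate 2 (0.0861) or M replicate 3 (0.0837), but kept without MetSA replicate 3 (0.0319). It was also lost with upper-quartile scaling (0.127) and in a fit of only MetSA and M (0.0657). The MA call was lost without MA replicate 2 (0.237), MA replicate 3 (0.0585), M replicate 1 (0.115), M replicate 2 (0.0924), M replicate 3 (0.0618), IA replicate 1 (0.0531), IA replicate 2 (0.0542) or IA replicate 3 (0.068), and in a fit of only MA and M (0.0532). The value in these settings was -0.14 without MA replicate 2 and between -0.23 and -0.19 in the others.

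In the thioredoxin system, Txnrd2 was the 1 member called against M, under IA. Txn1, the cytosolic thioredoxin on the minus strand at chr4:57943373-57956411, had 59.3, 72.9 and 66.7 CPM in IA libraries, 80.2, 72.0 and 75.5 CPM in MA libraries, 78.9, 68.5 and 58.2 CPM in MetSA libraries, and 63.4, 78.0 and 79.2 CPM in M libraries. Its log2 fold change was -0.15 under IA (95% interval -0.39 to 0.09), 0.05 under MA (adjusted p = 0.838) and -0.10 under MetSA (adjusted p = 0.581), with overlapping libraries each time. Txn2, the mitochondrial thioredoxin on the minus strand at chr15:77915047-77929006, had 66.5, 63.4 and 60.9 CPM in IA libraries, 60.5, 58.3 and 66.2 CPM in MA libraries, 63.2, 63.7 and 67.8 CPM in MetSA libraries, and 65.4, 67.6 and 72.4 CPM in M libraries. Its value under IA was -0.11 (adjusted p = 0.229), with upper-quartile scaling calling it at an adjusted p of 0.0314. It was -0.15 under MA (adjusted p = 0.12) and -0.08 under MetSA (adjusted p = 0.461). Txnrd2, the mitochondrial thioredoxin reductase, lies at chr16:18426384-18479073 on the plus strand. It had 17.6, 15.9 and 16.6 CPM in IA libraries, 18.7, 17.1 and 18.8 CPM in MA libraries, 17.4, 17.5 and 18.4 CPM in MetSA libraries, and 19.6, 20.3 and 20.3 CPM in M libraries. Every acid library lay below every M library, and it fell under IA by 0.27 on the log2 scale (SE 0.08, adjusted p = 0.0134), with an adjusted p of 0.0625 without IA replicate 2 and 0.0725 without IA replicate 3. Its value was -0.14 under MA (adjusted p = 0.25) and -0.18 under MetSA (adjusted p = 0.132), and the MetSA value was called with upper-quartile scaling (-0.24, adjusted p = 0.0441). Without MetSA replicate 3 the MetSA values were 0.0035 for Txn1 (adjusted p = 0.987), -0.11 for Txn2 (0.318) and -0.20 for Txnrd2 (0.122). No source used here says if counting used strand.

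**Figure D3:**
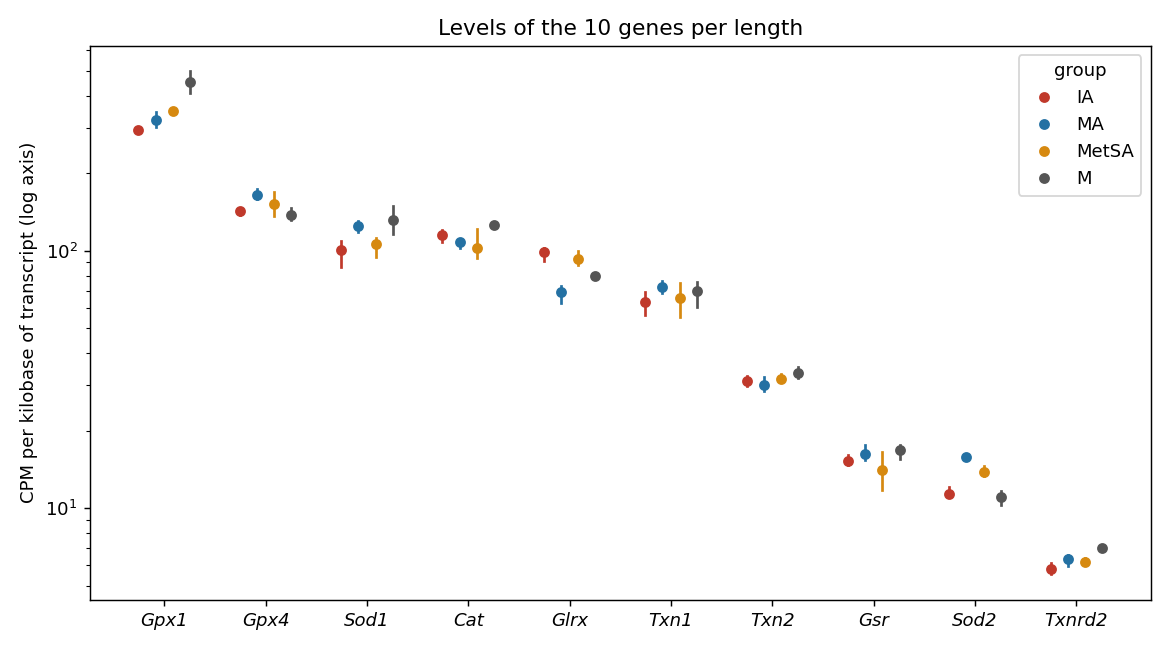
Level of each member in CPM per kilobase of its principal transcript, on a log axis, with points for the mean of IA, MA, MetSA and M and lines from the lowest to the highest library. Gpx1 is the highest member per kilobase in every group and Txnrd2 the lowest.

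Per kilobase of transcript, Gpx1 led in all groups, at 295 CPM per kilobase in IA, 323 in MA, 350 in MetSA and 453 in M. Gpx4 followed at 138, Sod1 at 132 and Cat at 126 CPM per kilobase in M, while Sod2, whose transcript is long, had 11.4 CPM per kilobase in IA, 15.8 in MA, 13.8 in MetSA and 11.1 in M. Txnrd2 was lowest, at 5.80 in IA, 6.33 in MA, 6.18 in MetSA and 6.98 CPM per kilobase in M. Gpx1 and Cat together made up 50.8% to 51.8% of the members' summed CPM in IA, 49.8% to 50.7% in MA, 49.4% to 54.0% in MetSA and 57.4% to 58.1% in M. By group mean, Gpx1 ordered as M, MetSA, MA and IA, with MetSA and MA, and MA and IA, not called apart. Sod2 ordered as MA, MetSA, IA and M, where the IA and M pair was not called apart. Glrx ordered as IA, MetSA, M and MA, where the IA and MetSA pair was not called apart.

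Direct comparisons between the acids, all at the same dose and time, showed where they differed. IA had 1 member higher and 3 lower than MA, against 17.8% and 16.8% of all tested genes. IA had 0 members higher and 2 lower than MetSA, against 3.97% and 2.15%. At an unadjusted p under 0.05, 0 members were higher in edgeR, and DESeq2 called 0 higher. MA had 1 member higher and 1 lower than MetSA, against 11.6% and 14.7%.

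Glrx and Sod2 differed most between IA and MA. Glrx was higher under IA by 1.42-fold (log2 fold change 0.51, adjusted p = 9.54e-06) and Sod2 was lower by 0.48 on the log2 scale (SE 0.06, adjusted p = 6.93e-06), both kept under all 20 alternative settings. Sod1 was lower under IA than MA (-0.31, adjusted p = 0.0211) and so was Gpx4 (-0.20, adjusted p = 0.0394). The Sod1 call was lost without IA replicate 1 (adjusted p = 0.104), MA replicate 2 (0.0767) or MA replicate 3 (0.0583). The Gpx4 call was lost without IA replicate 1 (0.136), IA replicate 2 (0.0685), IA replicate 3 (0.0968), MA replicate 2 (0.0629), MA replicate 3 (0.168) or MetSA replicate 2 (0.0512), with RLE scaling (0.0578) and by DESeq2 (0.0637). Gpx1 did not differ beyond the threshold between IA and MA (-0.13, 95% interval -0.27 to 0.01, adjusted p = 0.16), but did with upper-quartile scaling (0.0283).

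Between IA and its saturated counterpart MetSA, Sod2 was lower under IA (-0.28, SE 0.06, adjusted p = 0.0148) and so was Gpx1 (-0.25, SE 0.07, adjusted p = 0.0396). The Sod2 call was lost without IA replicate 1 (0.0743), IA replicate 3 (0.1) or MetSA replicate 3 (0.0586). The Gpx1 call was lost without IA replicate 1 (0.152), IA replicate 2 (0.077), IA replicate 3 (0.136), MA replicate 2 (0.0584), MetSA replicate 1 (0.0721), MetSA replicate 2 (0.0996), MetSA replicate 3 (0.0658) or M replicate 2 (0.0556), with RLE scaling (0.0554) and with a stricter filter (0.0533). The other members were not called, with Glrx at 0.09 (95% interval -0.06 to 0.24), Sod1 at -0.07 (-0.28 to 0.14) and Txn1 at -0.05 (-0.29 to 0.19). Cat stood at 0.17 (-0.01 to 0.34), and at 0.30 without MetSA replicate 3 (adjusted p = 0.00692).

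Between MA and MetSA, Glrx was lower under MA by 0.42 on the log2 scale (SE 0.07, adjusted p = 0.000112), a call kept under all 20 alternative settings. Sod2 was higher under MA by 0.20 (SE 0.06, adjusted p = 0.0243), with the call lost without MA replicate 1 (0.0871), MA replicate 2 (0.0604), MetSA replicate 1 (0.0841) or MetSA replicate 2 (0.0843), and with no filter on low counts (0.0509). Leaving out MetSA replicate 3 added Cat at 0.21 (adjusted p = 0.0131) and Gsr at 0.34 (adjusted p = 0.00582). Gpx4 was called without MetSA replicate 1 (adjusted p = 0.0474), and Sod1, at 0.24 (adjusted p = 0.0899), with upper-quartile scaling (0.0383), with no filter on low counts (0.0146), in a fit of only MA and MetSA (0.038) and without IA replicate 1 (0.0463).

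**Figure D4:**
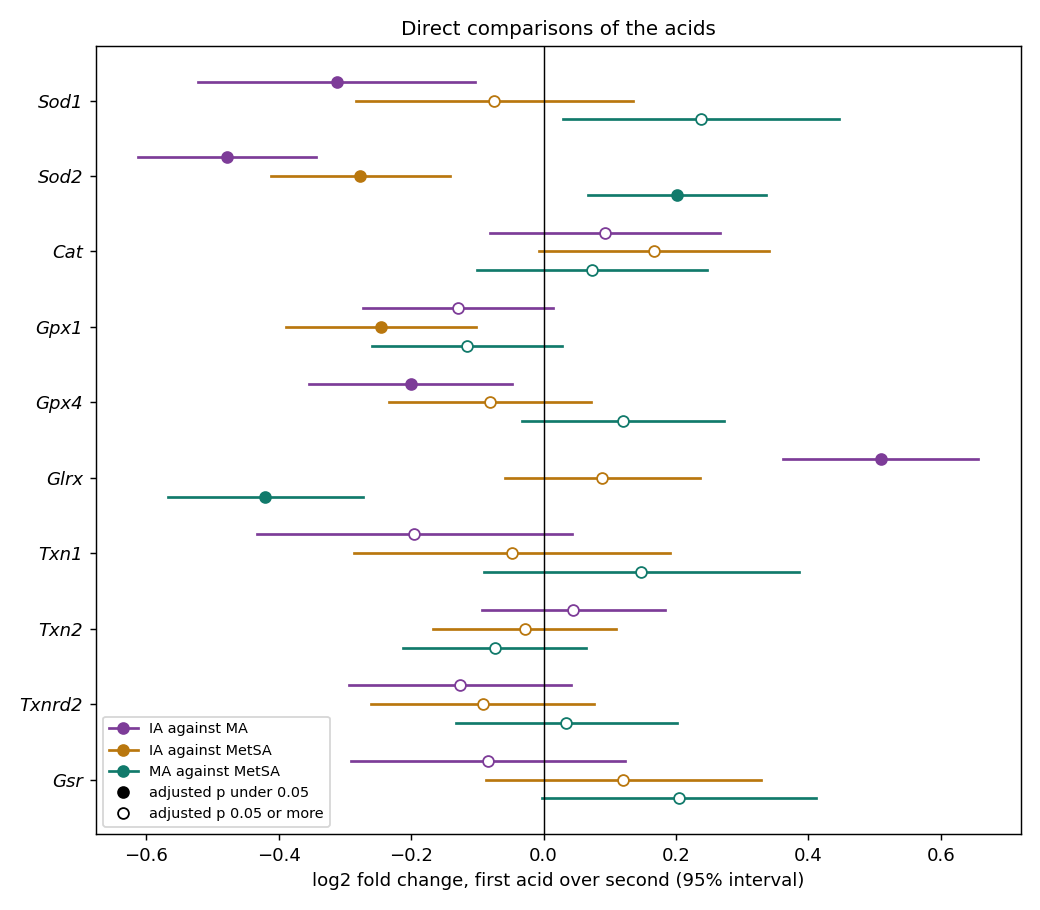
Log2 fold change of each member for IA against MA, IA against MetSA and MA against MetSA, with 95% intervals as bars and filled symbols for an adjusted p under 0.05. Glrx and Sod2 stand off 0 in opposite directions for IA against MA, and Txn1, Txn2 and Txnrd2 are called in none of the 3.

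Genes whose levels were most like those of the 3 members with the largest group differences were sought by the root mean square distance of log2 CPM from the M mean, over 12 libraries and 8162 genes of at least 10 CPM on average. Nearest to Gpx1 were Mum1 at 0.0925, Anxa2 at 0.0977 and Oxct1 at 0.0988, where the deviation of Gpx1 itself was 0.4385. Nearest to Sod2 were Rxra at 0.0934, Sulf2 at 0.1067 and Ggta1 at 0.1078, where the deviation of Sod2 itself was 0.3106. Nearest to Glrx were Nr3c1 at 0.0712, Pi4k2a at 0.0723 and Arf2 at 0.0789, where that of Glrx itself was smaller, at 0.2241.

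For this and the following lists of partner genes, the background is the share of all tested genes called against M. It was 17.9% higher and 17.3% lower under IA, 10.1% and 10.1% under MA, and 12.6% and 8.53% under MetSA. With upper-quartile scaling 1918 genes were called higher and 3590 lower under IA, and 1385 higher and 1895 lower under MetSA. No list was tested against either background. Of the 10 tested other superoxide and peroxide enzymes, 1 rose under IA, 3 under MA and 1 under MetSA, and 0 fell in edgeR with TMM scaling or in DESeq2. At an unadjusted p under 0.05 in edgeR, 0 were lower under IA, 0 under MA and 1 under MetSA. The list's median log2 fold change was 0.01 under IA, 0.14 under MA and -0.06 under MetSA. The count under MA was 5 higher, and that under MetSA 1 higher and 3 lower, without MetSA replicate 3, and 2 higher under MetSA without M replicate 3. Upper-quartile scaling gave 1 higher and 2 lower under IA and 1 higher and 1 lower under MetSA, and no filter on low counts gave 2 higher and 1 lower under MetSA. Prdx5, a peroxiredoxin that reduces peroxides, rose to 207 ± 6.30 CPM in IA, 234 ± 14.1 CPM in MA and 194 ± 21.3 CPM in MetSA, against 120 ± 9.90 CPM in M (SD, n = 3 each). Its adjusted p was 1.63e-07 for IA, 1.73e-08 for MA and 1.71e-06 for MetSA, and 12.32% of its transcript sequence is shared with Trmt112. Prdx6, which reduces phospholipid hydroperoxides, rose to 64.98 ± 1.86 CPM in MA against 47.9 ± 1.27 CPM in M (adjusted p = 0.000992).

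Of the 13 genes listed as other thioredoxin and glutaredoxin genes, 2 rose and 5 fell under IA, 1 rose and 2 fell under MA, and 2 rose and 2 fell under MetSA. The medians of the 13 were -0.16 for IA, -0.13 for MA and -0.10 for MetSA (log2 fold change). This list also holds Txnip and genes that repair oxidised methionine, among them Msrb1. Msrb1 and Txnip were the genes that rose under IA and MetSA, and Msrb1 the one under MA. Txnrd1, the cytosolic selenoprotein that recharges Txn1, fell to 190 ± 3.90 CPM in IA and 175 ± 24.2 CPM in MetSA, against 270 ± 24.6 CPM in M (adjusted p = 8.73e-05 and 1.87e-05). Txnip, which binds and blocks thioredoxin, rose to 950 ± 35.4 CPM in IA and 859 ± 81.3 CPM in MetSA and was 550 ± 40.2 CPM in MA, against 637 ± 46.4 CPM in M. Its adjusted p was 4.77e-06 for IA and 0.000236 for MetSA. For MA it was 0.0494, and between 0.05 and 0.237 in 12 of 20 alternatives, among them leaving out any M or IA library, MA replicate 1, MA replicate 2 or MetSA replicate 2. Msrb1, a selenoprotein that repairs oxidised methionine, rose to 97.3 ± 7.96 CPM in IA, 120 ± 6.83 CPM in MA and 84.5 ± 9.77 CPM in MetSA, against 53.0 ± 5.91 CPM in M (adjusted p = 7.11e-07, 2.97e-08 and 2.93e-05). Some 12.06% of the Txnip transcript sequence is shared with Gm15441.

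Of the 16 other selenoproteins, 5 rose and 5 fell under IA, 4 rose and 1 fell under MA, and 4 rose and 3 fell under MetSA, with median log2 fold changes of -0.11 for IA, 0.06 for MA and 0.05 for MetSA. Without MA replicate 1 or M replicate 3 the MA count was 3 higher and 0 lower, and without M replicate 1 the MetSA count was 3 higher and 1 lower. Selenot, a selenoprotein of the endoplasmic reticulum, rose to 295 ± 14.4 CPM in IA and 267 ± 2.87 CPM in MetSA, against 192 ± 12.2 CPM in M (adjusted p = 1.88e-07 and 9.87e-06). Among 10 genes for making selenoproteins, Sephs2, which supplies selenophosphate, rose under MA to 138 ± 6.32 CPM against 59.1 ± 0.922 CPM in M (adjusted p = 2.52e-10), with 33.35% of its sequence shared with Gm44729. Of these 10 genes, 1 rose and 1 fell under IA, 2 rose under MA and 1 fell under MetSA, with medians of 0.04 for IA, -0.02 for MA and 0.01 for MetSA on the log2 scale. Without IA replicate 1, M replicate 1 or M replicate 2 the IA count was 0 higher and 1 lower, without M replicate 2 the MA count was 1, and without MetSA replicate 1 the MetSA count was 1 higher and 1 lower.

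Of the 8 genes that make superoxide or nitric oxide, 5 rose under IA, 3 rose and 1 fell under MA, and 5 rose under MetSA. Of all tested genes, 17.9% rose under IA, 10.1% under MA and 12.6% under MetSA, and 17.3%, 10.1% and 8.53% fell. The MetSA count was 3 without M replicate 2 and in a fit of only MetSA and M. The median log2 fold change was 0.39 for IA, 0.24 for MA and 0.40 for MetSA, the largest among these partner lists. Nos2, the inducible nitric oxide synthase, is among those called under IA and MetSA, with 28, 64 and 32 counts in IA libraries, 0, 2 and 0 counts in MA libraries, 16, 2 and 8 counts in MetSA libraries, and 1, 0 and 0 counts in M libraries, so no fold is given. Its MetSA call was lost without MetSA replicate 1 (adjusted p = 0.0801) or M replicate 2 (0.058). Xdh, also on this list, had 409 ± 14.4 CPM in M. It rose to 808 ± 14.9 CPM in IA, 599 ± 40.8 CPM in MA and 591 ± 66.7 CPM in MetSA (adjusted p = 3.89e-09, 1.39e-05 and 2.17e-05). Cybb, the catalytic subunit of the phagocyte NADPH oxidase, rose to 2606 ± 176 CPM in IA, 1724 ± 86.1 CPM in MA and 2214 ± 52.6 CPM in MetSA, against 1342 ± 139 CPM in M (adjusted p = 4.21e-09, 0.00102 and 4.2e-07). Ncf1, a cytosolic subunit of that oxidase, rose to 446 ± 25.1 CPM in IA, 458 ± 9.45 CPM in MA and 439 ± 6.15 CPM in MetSA, against 304 ± 15.4 CPM in M (adjusted p = 3.93e-07, 2.84e-07 and 1.37e-06). Rac2, a small GTPase that activates the oxidase, fell under MA to 154 ± 8.73 CPM against 206 ± 15.5 CPM in M (adjusted p = 0.000619). Under MetSA it was 247 ± 25.6 CPM (adjusted p = 0.0202), a call lost without MetSA replicate 3 (0.0968), M replicate 1 (0.113) or M replicate 2 (0.0595), with upper-quartile scaling (0.0891) and in a fit of only MetSA and M (0.056).

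Of the 13 tested genes of glutathione supply, 2 rose and 3 fell under IA, 3 rose and 1 fell under MA, and 1 rose and 3 fell under MetSA, with medians of 0.13 for IA, 0.10 for MA and 0.16 for MetSA on the log2 scale. Gclc, the catalytic subunit of the first enzyme of glutathione synthesis, fell to 29.6 ± 0.707 CPM in IA and 28.3 ± 2.28 CPM in MetSA, against 42.8 ± 1.87 CPM in M (adjusted p = 6.15e-06 and 3.18e-06). Slc7a11, which imports cystine, rose under MA to 4.79 ± 0.418 CPM against 1.79 ± 0.0878 CPM in M (adjusted p = 0.00111). Of the 15 genes of NADPH supply, 3 rose and 5 fell under IA, 1 rose and 5 fell under MA, and 3 rose and 2 fell under MetSA, with medians of -0.01 for IA, -0.08 for MA and -0.09 for MetSA. Without IA replicate 3 or M replicate 2 the IA count was 3 higher and 2 lower, and without MA replicate 1 the MA count was 0 higher and 3 lower. G6pdx, the entry enzyme of the pentose phosphate pathway, fell under MA to 198 ± 15.9 CPM against 258 ± 5.42 CPM in M (adjusted p = 0.00655). Idh2, a mitochondrial NADPH source, fell to 36.5 ± 1.84 CPM in IA and 47.3 ± 4.47 CPM in MetSA, against 59.5 ± 5.15 CPM in M (adjusted p = 6.66e-07 and 0.00393). Mthfd2 had 16.3 ± 0.130 CPM in M. It rose to 29.9 ± 2.35 CPM in IA and 21.9 ± 2.33 CPM in MetSA (adjusted p = 6.51e-07 and 0.00329). In MA it fell to 11.7 ± 1.17 CPM (0.00131). Aldh1l1 had 25.9 ± 0.882 CPM in M. It rose to 36.0 ± 3.91 CPM in IA and 33.8 ± 2.60 CPM in MetSA (adjusted p = 0.0002 and 0.00267). In MA it fell to 17.3 ± 1.02 CPM (6.26e-05).

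Of the 14 regulators and markers of NRF2, the transcription factor that switches on many antioxidant genes, 3 rose and 5 fell under IA, 2 rose under MA, and 3 rose and 4 fell under MetSA, with medians of 0.03 for IA, 0.02 for MA and -0.21 for MetSA on the log2 scale. Without MA replicate 1, M replicate 1 or M replicate 3 the MA count was 1. Hmox1, heme oxygenase, fell to 216 ± 13.5 CPM in IA and 268 ± 39.1 CPM in MetSA, against 357 ± 24.97 CPM in M (adjusted p = 4.82e-06 and 0.00239). Keap1, which marks NRF2 for degradation, rose to 77.2 ± 4.32 CPM in IA and 61.3 ± 6.75 CPM in MetSA, against 40.9 ± 2.46 CPM in M (adjusted p = 1.88e-08 and 1.31e-05). Mafk, also on this list, rose to 75.1 ± 9.48 CPM in IA against 36.4 ± 2.80 CPM in M (adjusted p = 6.06e-07). Gclm rose to 116 ± 5.82 CPM in MA against 74.3 ± 1.27 CPM in M (adjusted p = 0.0163). That call was lost without MA replicate 1 (0.0627), M replicate 1 (0.0548) or M replicate 3 (0.064). Of the 9 tested genes of metal and heme supply, 2 rose and 1 fell under IA, 2 rose and 1 fell under MA, and 1 rose under MetSA, with medians of -0.11 for IA, -0.04 for MA and 0.03 for MetSA. Upper-quartile scaling gave 1 higher and 5 lower under IA, and leaving out IA replicate 1 or M replicate 1 gave 1 higher and 1 lower under MetSA. Slc31a1, the copper importer, rose to 123 ± 3.09 CPM in IA, 111 ± 5.50 CPM in MA and 125 ± 8.37 CPM in MetSA, against 86.9 ± 4.17 CPM in M (adjusted p = 4.11e-06, 0.000441 and 5.14e-06). Some genes stand on more than 1 of these lists. Without MetSA replicate 3, the MetSA calls named for Prdx5, Txnrd1, Txnip, Msrb1, Selenot, Cybb, Ncf1, Gclc, Idh2, Hmox1, Keap1, Slc31a1 and Nos2 were kept, with Txnrd1 at -0.74 and Txnip at 0.35 on the log2 scale. Those of Xdh, Mthfd2 and Aldh1l1 were also kept without that library (adjusted p = 1.85e-07, 0.000467 and 0.000725).

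**Figure D5:**
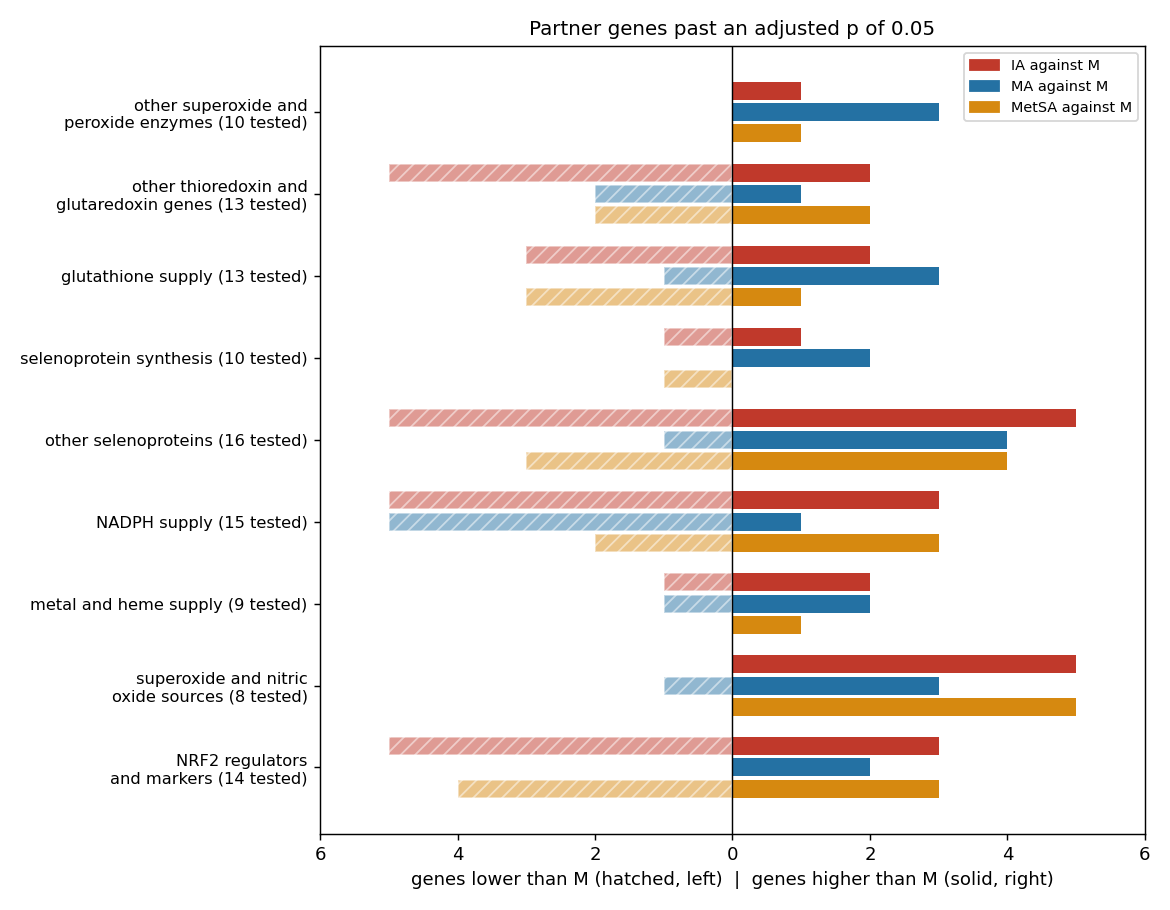
Number of genes of each partner list called lower (hatched bars, to the left) and higher (solid bars, to the right) under IA, MA and MetSA against M, counted among the tested genes of the list. Genes that make superoxide or nitric oxide hold 5 higher and 0 lower under IA and under MetSA. Over all tested genes, 17.9% were higher and 17.3% lower under IA, 10.1% and 10.1% under MA, and 12.6% and 8.53% under MetSA.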

How the data were processed

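The 12 libraries fall into 4 groups by the sample titles, with 3 replicates each. The authors deposited raw counts for each gene, without normalisation. STAR, featureCounts and mm10 are named in the submitters' processing notes, without a version or a strand setting. Low counts are more often even (66.1% of counts from 1 to 9, 50.9% of the highest counts), so both mates of a pair may be counted, and 1 alternative divides all counts by 2. Rows without a symbol (127) took 0.0267% of the counts. Each library differed from others of its group beyond sampling noise by a chi-square test.

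Genes were kept by filterByExpr (14113 genes, 99.98% of counts) with TMM scaling. A single edgeR model held the 4 groups and left 8 residual degrees of freedom. Differences were tested by its quasi-likelihood test, with Benjamini-Hochberg adjustment and calls at an adjusted p under 0.05. It was tested on simulated data. The software was edgeR 4.0.16 and DESeq2 1.42.0, with limma 3.58.1, under R 4.3.3. Each comparison was repeated under 20 alternatives. Errors after ± are SDs of 3 libraries. The members, gene lists and tests were chosen with earlier results of these data known. Partner genes were named by a rule: from every list, at most the 3 called genes of lowest adjusted p for each acid against M. Not all of these are printed. Nos2 was named outside the rule. Cybb under MA, Aldh1l1 under IA, and Idh2, Hmox1 and Rac2 under MetSA, are given although the rule picked them only for other acids. Shared sequence was found from 100-base stretches of GENCODE M21 transcripts on GRCm38.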

Additional observations from a re-analysis of the deposited data

How the results depend on the processing

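No member value that was called in either setting changed sign. Gpx1 under all 3 acids, Sod1 and Glrx under IA, Sod2 under MA and MetSA, and Glrx and Sod2 between IA and MA and Glrx between MA and MetSA were called under all 20 alternatives. Between IA and MetSA, 864 genes and 2 members were called. RLE scaling and a stricter filter (1 CPM in 6 libraries) left 1 member each, and called 893 and 934 genes. Over all genes DESeq2 called 1297, no filter 1483, the replicate block 1413 and a fit of only the 2 groups 575. The last of these fits called 3 members for MetSA against M, where the main count was 5. It called 2287 of 13552 genes for MetSA against M, where the main fit called 2989 of 14113. Leaving out 1 library gave 420 to 974 genes and 0 to 2 members for IA against MetSA, 2 to 5 members for MA against M, 3 to 6 for MetSA against M, 2 to 4 for IA against MA and 1 to 4 for MA against MetSA. Over all genes the ranges were 2104 to 3185 for MA against M and 2114 to 2982 for MetSA against M. They were 4047 to 5215 for IA against MA and 3036 to 3880 for MA against MetSA. For IA against MetSA the called members were 0 higher and 2 lower, but 1 higher (Cat) and 0 lower without MetSA replicate 3. Upper-quartile scaling moved the median log2 fold change of all genes to -0.12 for IA against M (-0.03 with TMM) and to -0.11 for IA against MA (-0.03), and the share of calls that were higher to 34.8% from TMM's 50.9% for IA against M, 42.2% (59.7%) for MetSA against M, 37.5% (51.5%) for IA against MA, 54.2% (64.8%) for IA against MetSA and 54.5% (44.1%) for MA against MetSA. The replicate numbers were not said to mark shared animals: deviations of same-numbered libraries correlated at 0.0122 to 0.1685, with 2 of 18 pairs over 0.1, and the own number had the highest correlation in 35 of 36 combinations, a hint from the data only. With the replicate block the members called were 4 for IA against M, 5 for MA against M, 6 for MetSA against M, 4 for IA against MA, 2 for IA against MetSA and 3 for MA against MetSA. Over all genes, in the same order, the block called 5507, 3262, 3527, 5380, 1413 and 4215. The main fit called 4961, 2860, 2989, 4887, 864 and 3720. The block added Cat for MA against M (adjusted p = 0.0383), and Gsr for MetSA against M (0.0163) and for MA against MetSA (0.0469). The cause of these changes was not tested. The number of libraries, 3 a group, limits the precision.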
